A study of Mus musculus with 36 samples.

Results

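The endothelin system was examined as 7 genes among the 37252 genes of GENCODE M1 on chromosomes 1 to 19 and X of mm9, of which 22350 are protein-coding. They are the ligand genes Edn1, Edn2 and Edn3, the receptor genes Ednra and Ednrb, and the converting enzyme genes Ece1 and Ece2. The genes were chosen by name, and every PAX6 or IgG peak whose centre lay in the gene body or at most 100 kb from it was assigned to the gene. PAX6 ChIP-seq had been carried out on enteric precursor cells (EPCs), the neural crest-derived progenitors of the gut, from the ganglionic gut of CD1 mice at P7 (postnatal day 7). The cells carried no labelled mutation or treatment and were grown as cell aggregates called neurosphere-like bodies (NLBs). Chromatin was precipitated with an anti-PAX6 antibody in 3 pools of 4, 6 and 6 ChIP libraries, each with as many input libraries, and with mouse IgG as negative control in 4 libraries that all carry the label of pool 1.

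The libraries of each pool were merged before peaks were called, which gives 3 PAX6 lists and 1 IgG list. They held 491, 1032 and 724 PAX6 peaks in pools 1, 2 and 3 and 1007 IgG peaks. Each peak has a score, the p-value of the peak caller on a phred-type log10 scale, and no peak scored under 50.04. The score depends on sequencing depth, which the lists do not give, and it was therefore ranked only within a list. The spread between libraries is unknown, and no test between pools was possible. Peak lists hold no expression values, so the identity of the cells could not be checked here against marker genes.

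Endothelins are made as long precursors that furin-type proteases and then the endothelin converting enzymes cut into short active peptides. The peptides bind to the G protein-coupled receptors EDNRA and EDNRB, which act mainly through phospholipase C, calcium and protein kinase C. In the gut, EDN3 from the mesenchyme acts on EDNRB of migrating neural crest cells. Loss of either gene leaves the distal bowel without enteric ganglia in mice, and variants of both are known in Hirschsprung disease.

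PAX6 peaks were found at 4 of the 7 genes, with 8 peaks in all, beside 17.5% of all protein-coding genes. No IgG peak lay within 100 kb of any of the 7, beside 8.63%, so a count of 0 does not set them apart. Ednrb had 4 PAX6 peaks from all 3 pools, Edn3 had 2 that overlapped each other, and Edn2 and Ednra had 1 each. Edn1, Ece1 and Ece2 had none. The mm9 sequence under 3 of these peaks is shown first, because each holds long runs of alternating CA or TG. Capitals mark uninterrupted CA or TG runs of at least 6 bp, and all sequences are read 5′ to 3′ on the forward strand.

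The stretch upstream of Ednrb at chr14:104313640-104313839 holds the longest run of the pool 3 peak, which had the best rank of the 8 peaks within its list. The stretch near Ednra at chr8:80152967-80153126 belongs to the peak with the highest CA or TG share of the 8. The stretch upstream of Edn2 at chr4:119764531-119764690 holds the longest uninterrupted run.
Ednrb, pool 3, upstream: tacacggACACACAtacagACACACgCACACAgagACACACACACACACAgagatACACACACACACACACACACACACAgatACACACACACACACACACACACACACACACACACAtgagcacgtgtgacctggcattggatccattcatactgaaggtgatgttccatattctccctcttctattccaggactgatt
Ednra, pool 3: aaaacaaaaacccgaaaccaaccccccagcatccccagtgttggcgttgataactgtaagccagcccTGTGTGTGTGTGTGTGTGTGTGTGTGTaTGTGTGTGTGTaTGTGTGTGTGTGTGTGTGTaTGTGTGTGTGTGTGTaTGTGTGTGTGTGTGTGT
Edn2, pool 2: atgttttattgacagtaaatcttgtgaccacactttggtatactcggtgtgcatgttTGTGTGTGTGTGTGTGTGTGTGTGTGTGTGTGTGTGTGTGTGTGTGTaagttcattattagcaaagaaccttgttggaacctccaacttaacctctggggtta

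Each count of genes was set beside the share of all protein-coding genes that met the same rule. Of the 7 genes, 1 had a peak of pool 1, against 4.25% of protein-coding genes. For pool 2 the count was 3 of 7, against 8.08%, and for pool 3 it was also 3 of 7, against 6.84%. A PAX6 peak of any pool was assigned to 4 of 7 genes, against 17.5% of protein-coding genes. Peaks of at least 2 pools were assigned to Edn3 and Ednrb, against 1.56% of protein-coding genes. The authors had already named Edn3 a PAX6 target from its peaks in these same lists, so its count repeats that selection. IgG peaks were assigned to 0 of 7, against 8.63%. These counts over 7 genes are a description without a test.

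**Figure D1:**
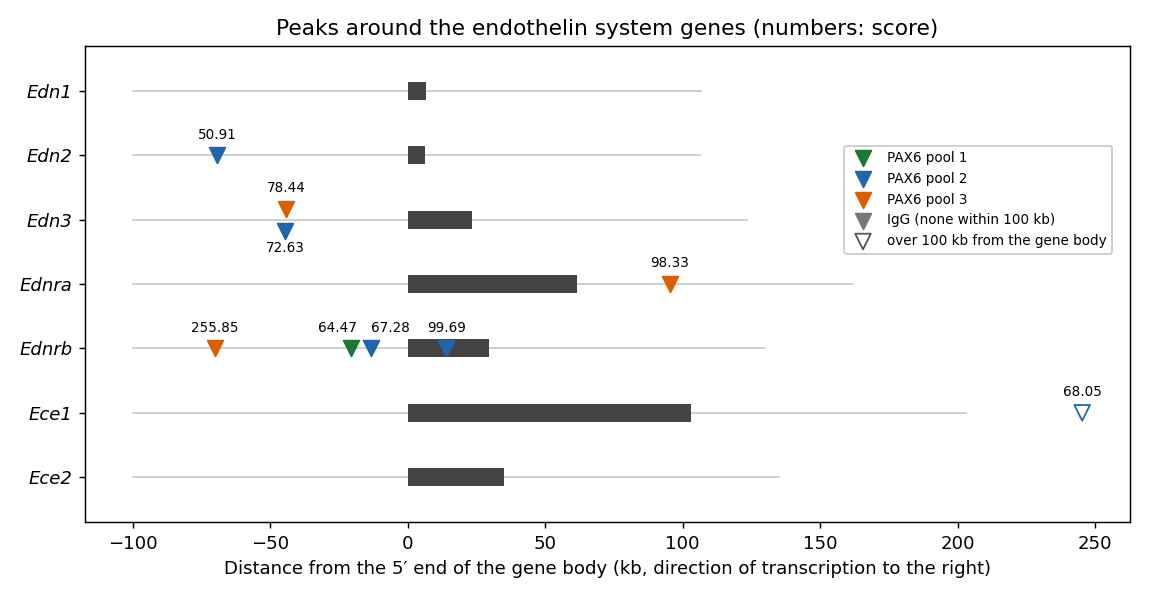
Map of the 7 endothelin system genes, with distance from the 5′ end of the gene body in kb on the x axis, direction of transcription to the right, and 1 row per gene. Dark bars are gene bodies, grey lines the 100 kb on either side, filled triangles the centres of PAX6 peaks coloured by pool with their score, and the open triangle the pool 2 peak 142 kb from Ece1. Ednrb has 4 peaks from 3 pools, the 2 triangles at Edn3 lie above one another, and Edn1, Ece1 and Ece2 have no filled triangle.

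Edn1 encodes endothelin-1, the ligand best known as a vasoconstrictor made by blood vessel endothelium. It lies at chr13:42396639-42403358 on the forward strand and had no peak of any list within 100 kb. The nearest IgG peak was 1012 kb away, and the nearest PAX6 peaks were 1524 kb (pool 1), 3117 kb (pool 2) and 1191 kb (pool 3) away. Edn1 was thus more than 1 Mb from every peak of the 4 lists. It also stands apart from other coding genes, since the nearest one, Hivep1, lies 116 kb away.

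Edn2 encodes endothelin-2, a ligand of both receptors. The gene lies at chr4:119833811-119839965 on the forward strand and had 1 PAX6 peak, from pool 2, at chr4:119764155-119764775. The peak was 621 bp wide, lay 69.3 kb upstream of the start site and scored 50.91, rank 1019 of 1032, so only 1.26% of the pool 2 peaks scored lower. Its centre falls inside the body of Hivep3, although no start site is closer to it than that of Edn2. The nearest peak of pool 3 was 493 kb away and that of pool 1 was 1498 kb away, so the assignment rests on 1 peak near the bottom of 1 list.

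Edn3 encodes endothelin-3, the ligand of EDNRB in gut colonisation. It lies at chr2:174586120-174609543 on the forward strand, with 4 annotated start sites, and had a PAX6 peak in pool 2 and another in pool 3. The pool 2 peak at chr2:174541129-174541718 was 590 bp wide and scored 72.63, rank 413 of 1032, above 60.0% of its list. The pool 3 peak at chr2:174541619-174541903 was 285 bp wide and scored 78.44, rank 481 of 724, above 32.9% of its list. The centres lay 44.7 and 44.4 kb upstream of the closest Edn3 start site, and no gene body covers them. The pool 2 peak scored above the median of its list, 68.98, and the pool 3 peak below that of its list, 105.6. Neither was among the highest scores.

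The 2 peaks upstream of Edn3 overlapped over 100 bp, chr2:174541619-174541718, which is 16.9% of the pool 2 peak and 35.1% of the pool 3 peak. Shared regions were counted without the PAX6 peaks that overlap an IgG peak. On that count, 24 regions of the genome, with 49 PAX6 peaks, were shared by at least 2 pools. A peak of such a region lay within 100 kb of 0.192% of protein-coding genes. Edn3 was the 1 gene of the 7 with such a peak, and the authors had named it a PAX6 target from this same pair. When an overlap of 50% of both peaks was required, the Edn3 region was no longer counted as shared. Pool 1 had no peak there, and its nearest peak to Edn3, 214 kb away, scored 59.92, rank 283 of 491. The nearest IgG peak was 2657 kb away. The same pair of peaks lies within 100 kb of Zfp831, the nearest coding gene, 49.8 kb from Edn3.

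Ednra encodes the receptor that mediates endothelin signals in smooth muscle and in the neural crest of the face. The gene lies at chr8:80186930-80248363 on the reverse strand and had 1 PAX6 peak, from pool 3, at chr8:80152910-80153337. The peak was 428 bp wide and scored 98.33, rank 381 of 724, above 47.4% of its list. It lay 33.8 kb beyond the 3′ end of Ednra and 95.2 kb from its start site, inside the body of 4933431K23Rik. Other genes were closer by start site, namely the processed transcript 1700092C02Rik at 5.05 kb and the coding gene Tmem184c at 18.5 kb. Among the 8 peaks it was the only one for which another coding gene had the nearest start site. The nearest pool 2 peak was 669 kb from Ednra and the nearest IgG peak 875 kb.

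Ednrb encodes the receptor through which EDN3 acts on enteric and melanocyte precursors. It lies at chr14:104213842-104243390 on the reverse strand and had 4 PAX6 peaks, 1 in pool 1, 2 in pool 2 and 1 in pool 3. The highest in rank was that of pool 3 at chr14:104313346-104313853, 508 bp wide and 70.2 kb upstream, with a score of 255.85, rank 12 of 724 and above 98.3% of its list. No other peak near the 7 genes reached so high a rank in its list. The intronic peak of pool 2 at chr14:104229238-104229516 was 279 bp wide, lay in intron 2 of a transcript of 8 exons, 13.5 kb downstream of the start site, and scored 99.69, rank 117 of 1032, above 85.4% of its list. That score was shared by 35 peaks of pool 2. It is the only one of the 8 peaks inside the body of a gene of the endothelin system.

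The remaining 2 Ednrb peaks lay closer to the start site on its upstream side. The second peak of pool 2 at chr14:104256458-104256885 was 428 bp wide, 13.3 kb upstream, and scored 67.28, rank 654 of 1032, above 36.5% of the list. The pool 1 peak at chr14:104263784-104264171 was 388 bp wide, 20.6 kb upstream, and scored 64.47, rank 189 of 491, above 58.7% of the list. None of the 4 peaks overlapped another. They spread over 84.6 kb, and the closest pair, the upstream peaks of pools 2 and 1, was separated by 6.90 kb. Among PAX6 peaks that overlap no IgG peak, those shared between pools were rare over the whole genome, 49 peaks in 24 regions. None of the 4 Ednrb peaks overlapped IgG, so their lack of overlap between pools is not particular to Ednrb.

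The number of pools and of peaks at Ednrb was seldom seen at other genes. Peaks of all 3 pools lay within 100 kb of 17 protein-coding genes, 0.0761% of them, and at least 4 PAX6 peaks lay near 16, 0.0716%. The body of Ednrb and its flanks span 230 kb, against a median of 215 kb over all protein-coding genes and 263 kb for the 16 genes with at least 4 peaks. The density was 17.4 PAX6 peaks per Mb at Ednrb, against 0.815 over chromosome 14 and 0.841 over all chromosomes used. At the other genes it was 8.95 per Mb for Edn3, 4.85 for Edn2, 3.83 for Ednra and 0 for Edn1, Ece1 and Ece2. Edn2 and Ednra had 1 peak each, in spans of 206 and 261 kb, so 1 peak alone puts a gene above the density over all chromosomes. No other protein-coding gene lies within 100 kb of Ednrb, and the nearest, Slain1, is 110 kb away. The nearest IgG peak was 705 kb away.

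**Figure D2:**
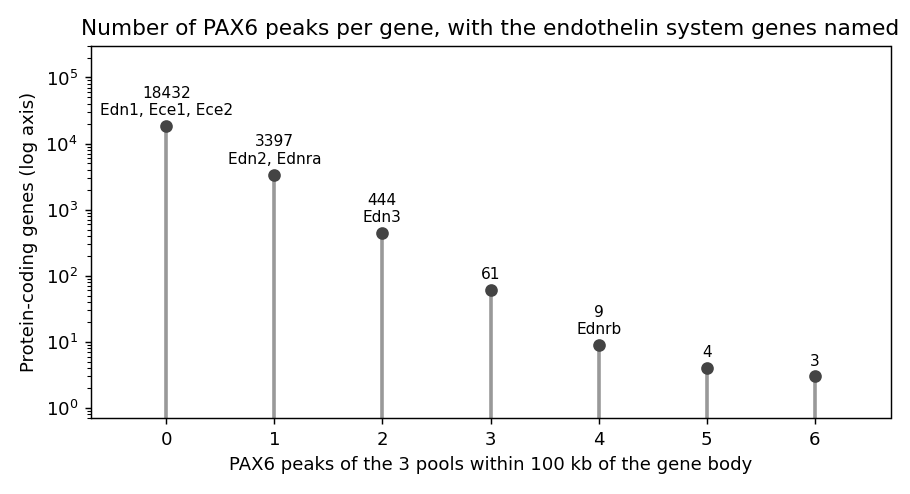
Number of protein-coding genes (y axis, log scale) by the number of PAX6 peaks of the 3 pools within 100 kb of the gene body (x axis), with the endothelin system genes named above the point they belong to. Most genes, 18432, have none, and Ednrb is one of 9 genes with exactly 4, beyond which there are 4 genes with 5 and 3 genes with 6.

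The converting enzymes cut big endothelin into the active peptide. Ece1, at chr4:137418152-137521144 on the forward strand, has the longest body of the 7 genes, 103 kb, and had no peak within 100 kb. The nearest was a pool 2 peak at chr4:137663288-137663702, 142 kb beyond the 3′ end and inside Eif4g3, which scored 68.05, rank 624 of 1032. Ece2, at chr16:20611666-20646558 on the forward strand, has 9 annotated start sites and 13 other protein-coding genes within 100 kb. Its nearest IgG peak was 2640 kb away, and its nearest PAX6 peaks were 898 kb (pool 1), 794 kb (pool 2) and 1874 kb (pool 3) away. In a gene-dense neighbourhood Ece2 thus had no peak of any list within 100 kb. Ednrb, with no coding neighbour in reach, had 4, but Edn1, also without one, had none.

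**Figure D3:**
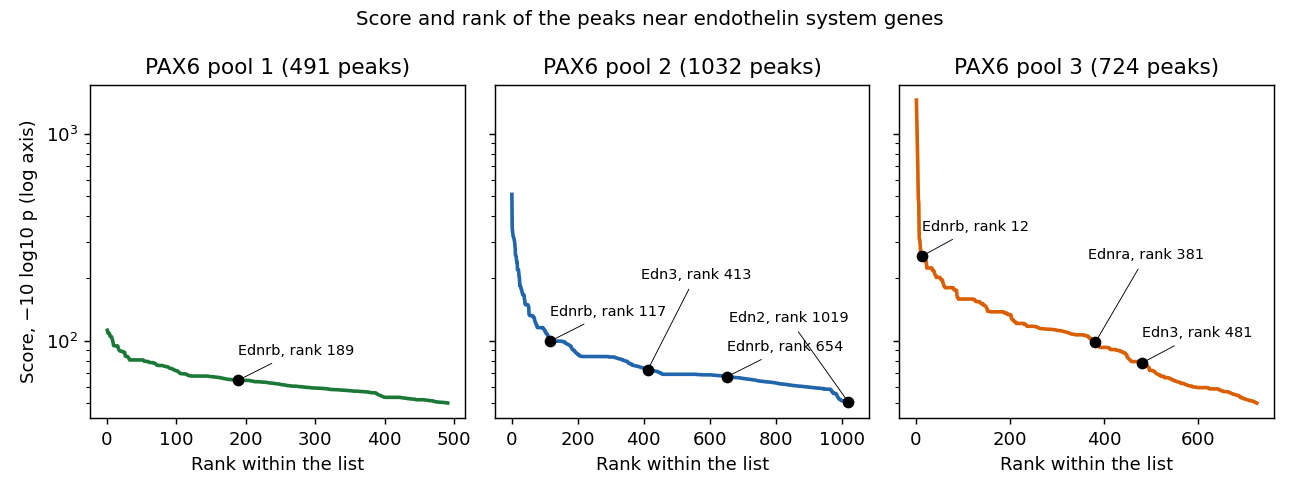
Score (y axis, log scale) against rank within the list (x axis) for all peaks of the 3 PAX6 pools, 1 panel per pool, with black points for the 8 peaks near endothelin system genes. The Ednrb peak of pool 3 stands at rank 12 on the steep part of its curve, while the Edn3 and Ednra peaks lie on the flat part and the Edn2 peak lies at the end, at rank 1019 of 1032.

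Many of the peaks held CA or TG repeats, as did the lists they came from. Of the 8 peaks, 6 held an uninterrupted CA or TG run of at least 20 bp, which is the same repeat read on either strand. The exceptions were both peaks of Edn3, where the longest run was 11 bp. There the repeat was broken into 23 short runs in the pool 2 peak and 12 in the pool 3 peak. A run of at least 20 bp was held by 49.3% of the peaks of pool 1, 56.7% of pool 2, 57.0% of pool 3 and 62.6% of IgG, and by 55.2% of the PAX6 peaks of all pools, against 4.26% of 297158 windows of the genome of 430 bp, the median width of a PAX6 peak. Peaks of all 4 lists, those of the IgG control included, thus held such runs more often than the genome windows.

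The share of bases in runs of at least 6 bp ranged from 12.6% to 66.8% over the 8 peaks, with a median of 33.4%. The median IgG peak had 26.3% and the median genome window 0%, while the PAX6 lists had medians of 12.1% (pool 1), 15.7% (pool 2) and 39.3% (pool 3). The Ednra peak had the highest share, 66.8%, in 19 runs of up to 27 bp, above 85.8% of pool 3, and 29 of the 297158 windows had as much. The Edn3 peaks had 32.0% in pool 2 and 36.5% in pool 3, above 79.5% and 46.1% of their lists. The Edn2 peak had the lowest share, 12.6%, but the longest run, 47 bp.

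At Ednrb the share was 35.6% in the pool 1 peak, above 87.9% of its list, with a longest run of 23 bp. It was 34.8% in the intronic peak of pool 2, where the longest run was 46 bp, and 17.8% in the upstream peak of pool 2, with a longest run of 22 bp. In the pool 3 peak it was 30.7%, with a longest run of 35 bp, below the median of that list although the peak stood at rank 12 by score. The pool 2 peak near Ece1 that missed the distance limit had 1.45%. How far the repeats bear on where peaks were called was not tested.

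**Figure D4:**
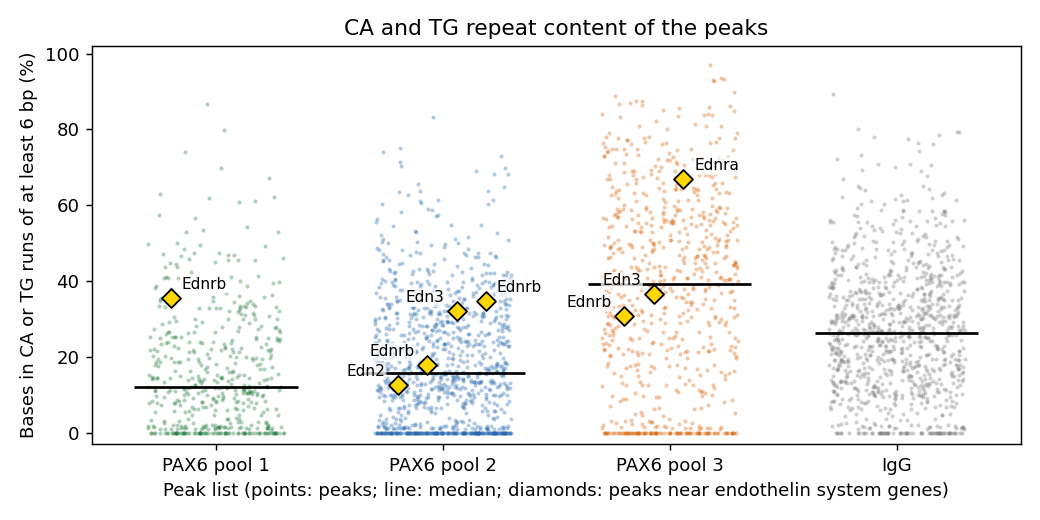
Share of bases in CA or TG runs of at least 6 bp (y axis, percent) for every peak of the 3 PAX6 pools and IgG (x axis), with 1 small point per peak, a line at the median of each list and diamonds for the 8 peaks near endothelin system genes. The diamonds lie between 12.6% and 66.8%, inside the range of their lists, and the IgG peaks also reach high shares.

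**Figure D5:**
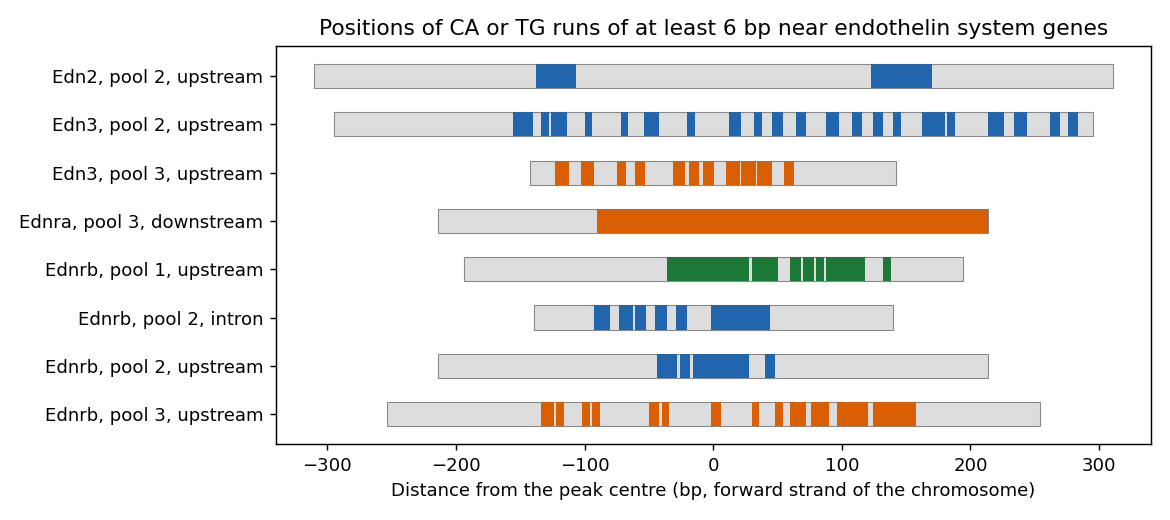
Positions of CA or TG runs of at least 6 bp (coloured by pool) along the 8 peaks, with distance from the peak centre in bp on the x axis and each grey bar as wide as its peak. The Ednra peak is filled with runs over most of its length, the Edn3 peaks hold many short runs, and the Edn2 peak holds 2 separate runs.

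Recognition sequences of PAX6 were searched on both strands without mismatch. The core TTCACGC of the paired domain site was found in 0 of the 8 peaks, in 0.496% of all PAX6 peaks, in 0.795% of the IgG peaks and in 0.674% of the genome windows. The homeodomain half-sites TAAT and ATTA with 3 bases between them were found in 0 of the 8 peaks, in 0.991% of all PAX6 peaks, in 0.696% of the IgG peaks and in 1.49% of the windows. Both sequences were too rare in all of these sets for 8 peaks to show a difference.

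A list of 37 further genes of the pathway, all found in the annotation, held 8 genes with a PAX6 peak within 100 kb. That is 21.6%, beside the 17.5% of all protein-coding genes. Of the 37, 1 gene, Prkcb, had peaks of at least 2 pools, beside 1.56% of all protein-coding genes, and 4 had an IgG peak, beside 8.63%. The groups within the list are small, and their counts are a description beside the same 17.5%. Among 9 genes that process or degrade the peptides, 2 had a PAX6 peak, or 22.2%. Pcsk6, a furin-type protease, had one of pool 2 lying 83.5 kb upstream, with a score of 61.72 and rank 828 of 1032. Cma1, the mast cell chymase, had one of pool 3 lying 24.9 kb beyond its 3′ end, with a score of 182.95 and rank 60 of 724.

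Of the signalling genes, 12 encode phospholipase C beta enzymes, IP3 receptors and protein kinase C. Of these, 4 had a PAX6 peak, or 33.3%, beside 17.5% of all protein-coding genes. Plcb4 had a pool 1 peak in its body at rank 256 of 491. Itpr2, an IP3 receptor, had 2 peaks of pool 3 in its body, at ranks 90 and 584 of 724. Prkca had 1 pool 3 peak in its body at rank 434. Prkcb had a pool 2 peak at rank 449 of 1032 that overlapped an IgG peak and a pool 3 peak 49.4 kb downstream at rank 528 of 724. The bodies of Plcb4, Itpr2, Prkca and Prkcb span 346 to 411 kb, longer than any of the 7 endothelin genes.

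Among 8 G protein alpha genes 1, Gna12, had a PAX6 peak, in pool 3, 67.3 kb upstream at rank 415. That is 12.5%, beside 17.5% of all protein-coding genes. None of 6 receptor kinase and arrestin genes had a PAX6 peak, a group too small to be set apart from that share. Arrb1 had an IgG peak 97.8 kb upstream. Of 2 transcription factors that act on Ednrb in neural crest and melanocytes, Mitf had a pool 1 peak 41.6 kb beyond its 3′ end at rank 280 of 491. Sox10, which encodes a factor that activates Ednrb in enteric precursors, had none. None of the 37 genes had a PAX6 peak that overlapped one of another pool. Without PAX6 peaks that overlap IgG, the share of all protein-coding genes was 0.192%, so a count of 0 in 37 does not set them apart.

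Genes with the most similar pattern were taken from those with peaks in the same lists, by the difference in peak counts over the 4 lists and then in the mean percentile of the best score. For Ednrb, 10 other protein-coding genes had peaks in all 3 pools and none in IgG, and 0 had the same counts. Fat2, Tmprss13 and Slc44a5 came closest, each with 1 peak per pool and mean percentiles of 74.8, 73.4 and 70.6, against 80.8 for Ednrb. For Edn3, 116 genes had peaks in the same lists, and Zfp831, Fam196a and Rnd3 came closest, Zfp831 through the same peaks. For Ednra, 1072 genes had the same lists, and Prmt10 and Tmem184c, which lie beside the same peak, came closest, followed by AA386476. The pattern of Edn2, 1 peak in pool 2 alone, was that of 1320 other genes, with Cnot6, Flt4 and Gfpt2 the closest.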

How the data were processed

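PAX6 ChIP-seq peak lists of EPCs were analysed as deposited. Reads had been aligned to mm9 by Bowtie, and MACS had been run by the authors on merged libraries. For software versions and the handling of duplicate or multiply mapping reads, the sources used here give no details. Peaks that overlap IgG peaks are still in the deposited lists. They were left out of the count of regions shared between pools. The score of a peak in these lists is the authors' MACS p-value on a phred-type log10 scale, not normalized for depth. Merging hides the spread between libraries, and no depth by pool, interval or p-value is given.

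Positions were converted to 1-based mm9 coordinates and compared with GENCODE M1. Ranks were taken within each list, with tied peaks sharing the best rank. Genome windows were every 20th consecutive window of 430 bp without unknown bases. Assignment and repeat search were tested on simulated data. Python 3.11.15, numpy 2.4.6, pysam 0.24.0, matplotlib 3.10.9 and samtools 1.23.1 were used.

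The genes, the pathway list and the alternatives were chosen with earlier results of these data known. The text names the 7 genes with every assigned peak, the nearest peaks, the genes around each peak, other pathway genes with a PAX6 peak, and up to 3 most similar genes per member. IgG peaks at pathway genes, the runs of at least 6 bp, and the alternatives for Ednrb and repeat length were chosen after the data were seen. Some sequences under these peaks are not reported here.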

Additional observations from a re-analysis of the deposited data

How the results depend on the processing

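The number of the 7 genes with a PAX6 peak stayed between 3 and 5 under every alternative except a score of at least 100, which left 1 gene, Ednrb, with 1 peak, and 0 genes with 2 pools. At that limit 2 other pathway genes and 4.32% of protein-coding genes had a PAX6 peak, and 0 regions near the 7 genes were shared. At a score of at least 70, 5 peaks near the 7 genes (2 of them at Ednrb), 5 other pathway genes and 8.99% of protein-coding genes remained within the rule. Both score limits were the same value in every list, although the median scores were 62.05, 68.98 and 105.6 in pools 1, 2 and 3. The highest score of pool 1 was 112.52. The limits therefore bear unequally on the pools. A distance limit of 50 kb gave 10.4% of protein-coding genes, and one of 200 kb gave 29.9% and 14 other pathway genes. Requiring an overlap of 50% of both peaks gave 0 shared regions near the 7 genes. With each pool left out in turn, the peaks near the 7 genes numbered 4 to 7 (4 without pool 2, 5 without pool 3), the genes with at least 2 pools 1 to 2, the other pathway genes 4 to 7 (4 without pool 3), the protein-coding genes 10.5% to 14.1% (10.5% without pool 2) and the shared regions 0 to 1 (0 without pool 2 or pool 3). Ednrb kept 2 peaks without pool 2. Removing PAX6 peaks that overlap IgG, measuring from start sites or placing peaks by any base moved no count by more than 1.5 times, and 0 of the 7 genes had an IgG peak under each of the 4 alternatives run for IgG. With repeats counted from 30 bp, 3 of the 8 peaks held one, beside 42.5% of all PAX6 peaks and 46.4% of IgG peaks, and from 12 bp 6 of 8 did, beside 70.3% and 81.1%. The causes of these shifts were not tested. No paired analysis was possible because each pool is 1 merged list and no result comes from a test. The authors report total reads but not the depth of each pool. The absence of a peak therefore does not show the absence of binding.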

Other observations

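Within 1 Mb of the gene bodies, the count of PAX6 peaks was 6 at Ednrb (1, 4 and 1 in pools 1, 2 and 3), 5 at Edn3 (1, 2 and 2), 4 at Ednra (0, 3 and 1), 3 at Ece1 (all in pool 2), 2 at Edn2 (1 each in pools 2 and 3), 2 at Ece2 (1 each in pools 1 and 2) and 0 at Edn1. IgG had 1 peak at that distance near Ednrb and 1 near Ednra, and 0 near the other 5 genes. At Ednrb 4 of the 6 peaks lay within 100 kb, and at Ednra 1 of 4. No share of all protein-coding genes was taken at this distance. Over all chromosomes used there were 0.841 PAX6 peaks per Mb, so low counts in spans of this size do not set a gene apart.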
